A study of Mus musculus with 4 samples.

Results

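An expression array reads RNA through short probes, and some stretches of RNA cannot be given to a single gene. The array used here groups its probes into transcript clusters, and for 2146 of its 65770 clusters with an ID starting with TC the platform annotation lists 2 or more distinct gene symbols. These 2146 clusters were picked by that annotation, with earlier results of these data known, and are described here. Another 30439 clusters name 1 gene and 33185 have no name in the annotation. Most of the shared clusters list a pair of symbols (1587), and the longest list holds 15. The cells were the CD45-negative fraction of the lung of C57BL/6 mice, collected at day 10 after intra-tracheal phosphate-buffered saline (PBS) or bleomycin (BLM), a drug that damages DNA and is given to mice to provoke lung fibrosis. Each treatment has 2 arrays of total RNA, PBS replicates 1 and 2 and BLM replicates 1 and 2. The labels name no other allele or agent, and do not say whether the arrays of a treatment came from separate mice or pools. A p-value here therefore reflects the spread between arrays only, which may be technical. Levels are the deposited log2 values, differences are BLM minus PBS in log2 units with a standard error (SE), from 2 arrays per treatment. Rose and fell are kept for clusters with an adjusted p under 0.05 in the limma fit over all 65770. The symbols of a cluster are joined by a slash.

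A cluster may name several genes for different reasons. Gene duplication leaves paralogs, which descend from 1 ancestral gene and can stay so alike that a probe matches all of them. A processed pseudogene is a copy of a spliced messenger RNA pasted elsewhere in the genome, so its probes may also match the parent gene. Genes can lie within one another or overlap, as microRNAs do inside their host transcripts, and a microRNA is a short RNA that lowers the output of messengers matching its seed, bases 2 to 8. Symbols can also be an old and a new name of the same gene.

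Promoter sequences show how alike the genes behind a shared value can be near their starts. The bases before a start are not the RNA that probes read, so they do not show why a cluster is shared. Near the start of Cyp2a5 and Cyp2a4, whose common cluster had the deepest fall, 294 of 299 aligned promoter bases were identical. Of the chemokine gene Ccl21a and the gene model Gm13304, listed together in 1 of the 9 clusters of Ccl21 genes, 296 of 299 were identical. The promoters of Sprr2a1 and Sprr2a2, named by the cluster with the highest rise, were the same in all 300 bases, and 272 of those bases recur without a mismatch in the window of Sprr2a3. The 250 bases before each start are given 5′ to 3′ from RefSeq (GRCm38.p6), with capitals where the pair differs. The windows are chr7:26835089-26835338 (plus strand) for Cyp2a5, chr7:26306942-26307191 (plus) for Cyp2a4, chr4:42773992-42774241 (minus) for Ccl21a, chr4:42114537-42114786 (plus) for Gm13304 and chr3:92215585-92215834 (plus) for Sprr2a1.
Cyp2a5: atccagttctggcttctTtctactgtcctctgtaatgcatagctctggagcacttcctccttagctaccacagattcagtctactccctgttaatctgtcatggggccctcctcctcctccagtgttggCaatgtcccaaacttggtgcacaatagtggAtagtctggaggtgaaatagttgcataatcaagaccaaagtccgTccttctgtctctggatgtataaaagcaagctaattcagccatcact
Cyp2a4: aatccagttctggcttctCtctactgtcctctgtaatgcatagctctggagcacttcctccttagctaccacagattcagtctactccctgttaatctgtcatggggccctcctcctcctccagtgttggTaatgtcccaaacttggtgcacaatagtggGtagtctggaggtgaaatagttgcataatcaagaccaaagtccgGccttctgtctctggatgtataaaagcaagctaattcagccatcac
Ccl21a: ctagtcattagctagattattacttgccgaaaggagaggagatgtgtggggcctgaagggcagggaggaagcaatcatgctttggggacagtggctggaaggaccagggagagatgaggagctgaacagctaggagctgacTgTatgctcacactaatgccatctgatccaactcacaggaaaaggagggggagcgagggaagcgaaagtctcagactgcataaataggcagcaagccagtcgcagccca
Gm13304: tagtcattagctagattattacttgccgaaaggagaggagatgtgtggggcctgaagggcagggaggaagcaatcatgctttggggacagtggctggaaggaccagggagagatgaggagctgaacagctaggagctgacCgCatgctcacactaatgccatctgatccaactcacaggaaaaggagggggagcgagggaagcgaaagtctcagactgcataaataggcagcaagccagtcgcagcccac
Sprr2a1: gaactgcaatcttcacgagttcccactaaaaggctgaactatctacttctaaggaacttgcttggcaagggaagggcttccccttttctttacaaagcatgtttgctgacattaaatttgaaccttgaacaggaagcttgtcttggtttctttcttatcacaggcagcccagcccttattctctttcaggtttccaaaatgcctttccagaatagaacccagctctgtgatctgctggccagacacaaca
In the upstream windows the Cyp2a pair and the Ccl21 pair differed at 4 and 2 bases.

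MicroRNAs lie inside several of the clusters with large differences, and their mature sequences follow from RefSeq (GRCm38.p6) with the seed in capitals. Mir199a-2 and Mir214 share a cluster with the long noncoding RNA Dnm3os, and their 5p arms lie at chr1:162217844-162217866 and chr1:162223397-162223418 (plus strand). Mir8114 (chr1:153899989-153900009, plus) is listed with the glutamine synthetase gene Glul, Mir6369 (chr13:58313119-58313141, minus) with the ciliary kinesin gene Kif27, and Mir6363 (chr16:50727204-50727225, plus) alone under a pair of names.
miR-199a-5p: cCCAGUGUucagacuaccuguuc
miR-199a-3p: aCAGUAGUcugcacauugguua
miR-214-5p: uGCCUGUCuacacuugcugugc
miR-214-3p: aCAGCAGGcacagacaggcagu
miR-8114: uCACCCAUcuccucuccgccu
miR-6369: uGGCUCAGuucaguguuggugag
miR-6363: uGUAGACUggacuguccucaaa
None of these seeds is shared with another in the group. The probes read the RNA of a whole cluster, so the values below are not levels of the mature microRNAs.

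Genes listed together were more often synonyms or separately placed genes than overlapping neighbours. In 659 clusters the symbols were names of 1 gene. In 572 the genes were taken as apart, because they lay on different chromosomes or more than 100 kb from one another, or because a gene had no position on an assembled chromosome (67 of the 572), and they did not share a symbol stem. In 208 of the 572 at least 1 gene was a pseudogene. A small RNA was listed with another gene in 266, neighbours within 100 kb that do not overlap made up 200, and 133 held genes that overlap. Paralogs, taken here as genes whose symbols differ only after a shared stem, lay apart in 192 clusters and within 100 kb in 116, and 8 could not be resolved. A pseudogene named after its parent, such as Atg4a-ps with Atg4a, counts here as a paralog, so the 208 leave such pairs out. Symbols hide many copies, because copies often carry model names such as Gm13304. Promoter windows were given for 2 or more genes of 650 clusters, and in 398 of these (61.2%) at least 1 pair aligned over 200 bases or more at 90% identity or more. That was so for 232 of 297 clusters of genes apart (78.1%), but for 1 of 54 clusters of overlapping genes. Within 100 kb, near-identity was found for 54 of 119 clusters of neighbours and 35 of 64 of paralogs. Of clusters with overlapping genes in any class, 198 had them on the same strand and 11 on opposite strands. For the rest, such as Nme9/1600029I14Rik, the strand of at least 1 gene was not given.

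The fit called 382 of the 2146 clusters, or 17.8%, beside 15.7% of all clusters and 18.2% of those naming 1 gene, so the overall share lies near that background. Higher on the BLM arrays were 243 (11.3%, against 7.23% of all and 10.9% of the clusters naming 1 gene) and lower were 139 (6.48%, against 8.48% and 7.33%). Of the 2146, 111 (5.17%) both passed and differed by at least 1 log2 unit, close to the 5.03% of all clusters that did. The 382 held 356 distinct sets of values, because some copies are given the same numbers, and fell into 299 groups that share a gene. The groups of arrays did not overlap in 1347 of the 2146 (62.8%, against 57.6% of all clusters). Without each array in turn, 131 of the 382 kept their call every time, 88 higher and 43 lower, 148 lost it every time, and 0 changed sign. The counts of higher and lower calls were 103 and 55 without BLM replicate 1, 125 and 56 without BLM replicate 2, 107 and 62 without PBS replicate 1, and 121 and 68 without PBS replicate 2. Clusters named below kept their call in all these fits unless another result is given.

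In most classes the share of clusters that passed lay near that of all clusters, and it was highest among genes apart. Differences between classes were not tested. Among genes apart, 112 rose and 25 fell of 572 (24.0% passing, beside 15.7% of all clusters). With a pseudogene in the list, 54 rose and 19 fell of 208 (35.1% passing), at a median level of 8.32, against 58 and 6 of 364 (17.6% passing), at a median level of 5.19, without one. Paralogs by symbol rose in 23 and fell in 10 of 192 clusters when apart, and in 18 and 7 of 116 within 100 kb. Small RNAs with another gene rose in 32 and fell in 17, neighbours in 15 and 13, and overlapping genes in 10 and 11. Synonym clusters fell more often than they rose, 56 against 33 of 659. The limma fit called 0 of the 8 unresolved clusters (2 at an unadjusted p under 0.05).

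**Figure D1:**
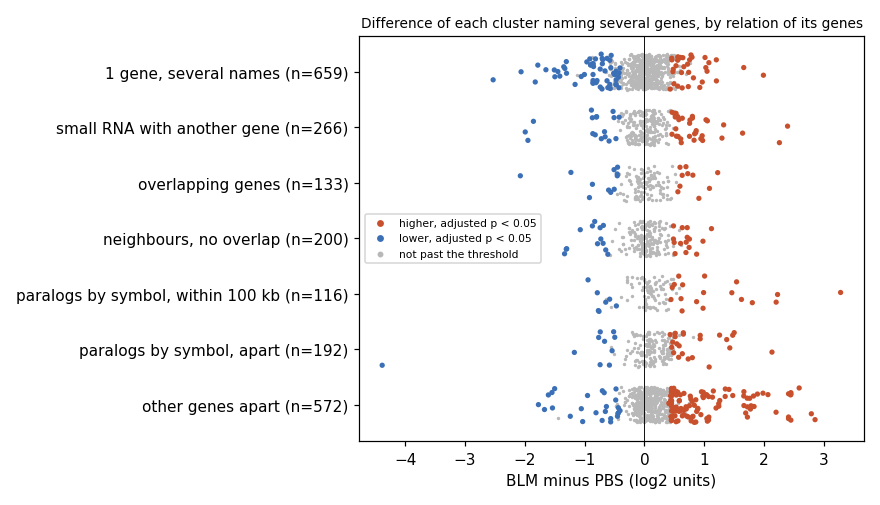
Difference between BLM and PBS (log2 units) of each of the 2146 clusters by the relation of its genes, leaving out the 8 unresolved. Each point is a cluster, coloured where the limma fit called it. The paralog classes hold the highest rise, 3.28, and the deepest fall, -4.39, and among genes apart red points (112 rises) outnumber blue ones (25 falls). Some of these red points belong to the same duplicated block, such as the 9 Ccl21 clusters.

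The samples themselves frame these values. Xist, the RNA of the inactive X chromosome, measured 15.86 and 15.61 in PBS but 5.60 and 5.43 in BLM, whereas Eif2s3y (2.63), Uty (2.44) and Kdm5d (2.14), all Y-linked, were higher in BLM. The labels give no sex, so treatment and this split cannot be told apart. Ptprc, the gene of CD45, was at 6.30 and 6.21 in PBS and 7.19 and 7.20 in BLM, a difference of 0.94 (SE 0.10), and was not at the floor of the arrays. Summed over 6 leukocyte markers the level ran from 34.96 to 35.17 in PBS and from 39.54 to 39.75 in BLM, with 3 of 6 higher. Of 8 macrophage markers 5 were higher and 2 lower (sums 80.1 to 80.4 against 90.2 to 90.3). All 5 ciliated and all 3 club cell markers and 4 of 5 alveolar type 2 markers were lower, and 5 of 6 fibroblast markers were higher. Fewer cells of a type and less RNA per cell cannot be told apart in such bulk samples, and the part of these shifts in the results below was not tested.

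Across the clusters with large differences, copies had the highest rise and the deepest fall, but few of the lowest 12 were copies. Ordered by size, the 12 highest sets of values among clusters with a named gene belonged to Sprr2a, Ccl21, Tmsb10, Loxl2, Dnm3os, Fam177a and Sirpb1 genes. The 12 lowest belonged to Cyp2a5 and Cyp2a4, to the chemokine gene Ccl27a and to 10 clusters of single genes under several names, of overlapping genes or of a gene listed with a small RNA. Clusters that list only unnamed gene models were left out of this ordering, although some lie in the same range, such as Gm3383/Gm3173/Gm3667 with 3 further models at 2.20.

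**Figure D2:**
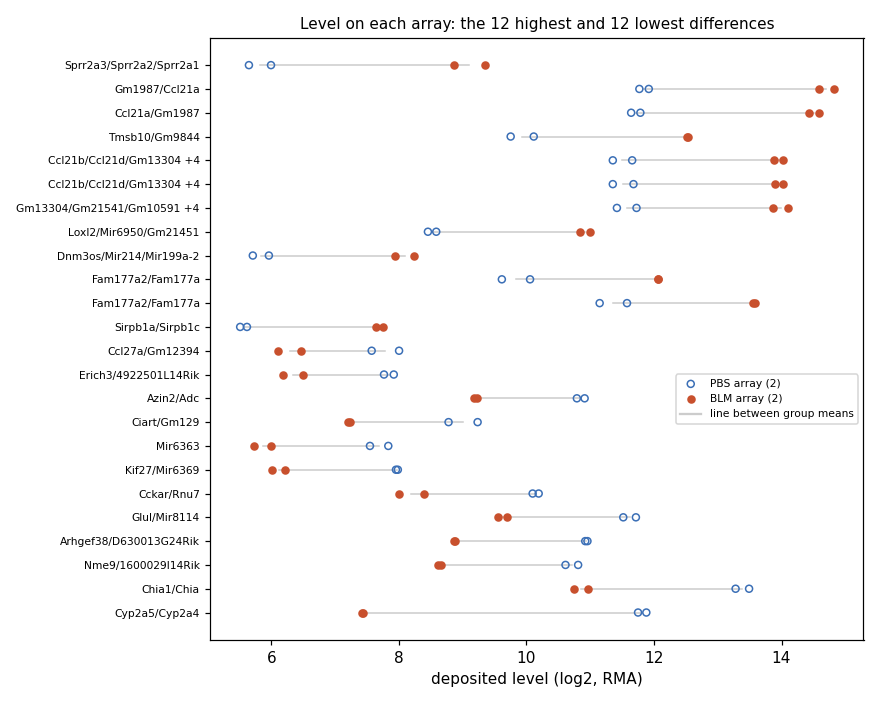
Deposited level (log2) on each of the 4 arrays for the 12 highest and 12 lowest differences among called clusters that list at least 1 gene other than unnamed models. Open circles are PBS arrays, filled circles BLM arrays and grey lines join the group means; no cluster shown has overlapping groups, and Cyp2a5/Cyp2a4 drops from 11.75 and 11.88 to 7.44 and 7.42.

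Clusters of a duplicated chemokine block on chromosome 4 rose where they list Ccl21 or Ccl19, but not where they list Ccl27. Ccl21 proteins draw Ccr7-bearing dendritic cells and T cells and are made by lymphatic endothelium, and Ccl19 binds the same receptor. All 9 clusters that list Ccl21 genes rose, by 2.41 to 2.86, and all 5 that list Ccl19 rose, by 0.52 to 0.87. Of 7 that list Ccl27 genes, whose product attracts skin-homing T cells, or share a gene with such a cluster, 0 rose and 4 fell (differences -1.55 to -0.01). Of the falls, Gm3893/Gm13306/Gm7819 (-1.55) and 4933409K07Rik/Gm21093 (-1.06) list no Ccl27 symbol. The 4 clusters of Il11ra2, a receptor gene for interleukin 11, differed by -0.05 to 0.03 and limma called 0 (0 at an unadjusted p under 0.05).

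Gm1987/Ccl21a stood at 11.77 and 11.92 in PBS and at 14.82 and 14.58 in BLM. Both BLM arrays lay well above both PBS arrays. The difference was 2.86 (SE 0.13, adjusted p = 0.0011, limma), or 7.24-fold. Ccl21a/Gm1987 stood at 11.64 and 11.79 against 14.58 and 14.43, a rise of 2.79 (SE 0.12). The other Ccl21 clusters list Ccl21b, Ccl21d or Ccl21c with Gm13304 and Gm10591, and the 9 clusters hold 5 distinct sets of values, so they are not 9 measurements. Their mean levels ran from 11.51 to 11.85 in PBS and from 13.96 to 14.70 in BLM, so the block was already bright without bleomycin. Which of its genes the RNA came from cannot be read from these clusters. Of lymphatic endothelial genes chosen after their values were seen, the transcription factor gene Prox1 was higher by 1.90 (SE 0.11). The hyaluronan receptor gene Lyve1 was lower by 1.11 (-1.11, SE 0.18), a call lost without BLM replicate 1 or 2 (adjusted p up to 0.0601). Their part in the Ccl21 rise was not tested.

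The Ccl19 clusters were dim by comparison with those of Ccl21, with mean levels of 6.77 to 7.39 in PBS and 7.36 to 8.13 in BLM. Gm12407/Ccl19 stood at 6.68 and 6.85 against 7.62 and 7.67, a rise of 0.87 (SE 0.11, adjusted p = 0.0086). The groups did not overlap. The cluster that names Ccl19 alone rose by 1.03 (SE 0.11). Gm2457/Ccl19-ps3/Ccl19, at 0.52, lost its call without any 1 array (adjusted p up to 0.157), and Ccl19/Gm2023, at 0.60, lost it without BLM replicate 1, BLM replicate 2 or PBS replicate 2 (up to 0.142).

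Falls in the same block came from clusters of Ccl27 and of neighbouring gene models. Ccl27a/Gm12394 stood at 8.0 and 7.57 in PBS and at 6.47 and 6.10 in BLM. Both BLM arrays were lower than both PBS arrays, although the arrays of each group lay apart as well. It fell by 1.5 (-1.5, SE 0.20, adjusted p = 0.0098). The cluster naming Gm12394 alone fell to the same extent (-1.49, SE 0.13), whereas that of Ccl27a alone was at -0.21 (SE 0.10, adjusted p = 0.252) and did not pass. Gm3893/Gm13306/Gm7819 fell by 1.55 (-1.55), from a mean of 10.80 to 9.25, and 4933409K07Rik/Gm21093 by 1.06 (-1.06). Gm13306/Ccl27b and 5 further symbols, at -0.43, lost its call without any 1 array (adjusted p up to 0.181). The 3 clusters that list Ccl27a and Ccl27b with only 3 models lay at -0.15, -0.10 and -0.01 and did not pass. Of 4 clusters with Fam205a genes or their models, 2 fell, by 0.44 (-0.44) and 0.41 (-0.41), and neither kept its call without any 1 array (adjusted p up to 0.195 and 0.2). LOC100041599/Gm17081/Gm5859 stood at 12.66 and 12.64 against 11.11 and 10.84 and fell by 1.67 (-1.67, SE 0.13).

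**Figure D3:**
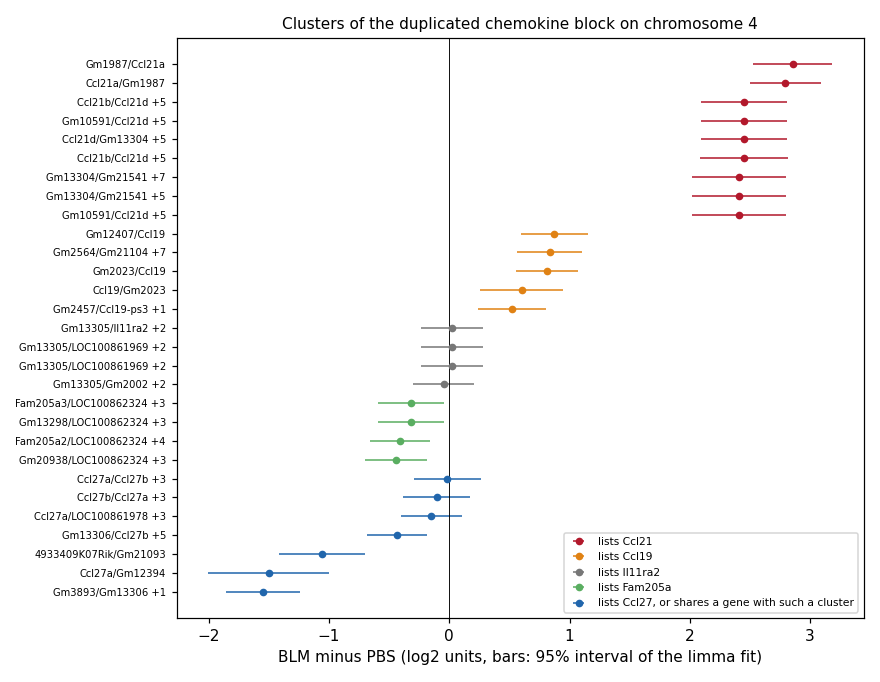
Difference between BLM and PBS (log2 units) of 29 clusters in the chromosome 4 chemokine block, coloured by family. Points are limma estimates and bars their 95% intervals. Ccl21 clusters lie from 2.41 to 2.86, Ccl19 from 0.52 to 0.87 and Il11ra2 about 0. The 7 clusters that list Ccl27 or share a gene with such a cluster lie from -1.55 to -0.01.

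Xenobiotic enzymes carried the deepest fall. Cyp2a5 and Cyp2a4 are members of a cytochrome P450 family that oxidises coumarin, nicotine and steroids. Their shared cluster stood at 11.75 and 11.88 in PBS and at 7.44 and 7.42 in BLM. The arrays of a treatment lay close together and the groups far apart. The fall was 4.39 (-4.39, SE 0.10, adjusted p = 0.0006), or 20.9-fold. The cluster of Cyp2a4 alone dropped by 4.13 (-4.13, SE 0.12), from 11.03 and 11.24 to 6.95 and 7.05. The more distant relatives Cyp2a12 (-0.01, PBS levels 5.20 and 5.14) and Cyp2a22 (-0.05, PBS levels 4.47 and 4.34) did not pass. Club cells hold much of the lung's P450 content, and all 3 club cell markers were lower on the same arrays. Xist and the Y-linked genes split these arrays by treatment as well. The part of either in the Cyp2a fall was not tested. Of the 14 shared clusters that list drug-metabolising genes, 0 rose and 4 fell (28.6% passing, beside 15.7% of all clusters and 8.48% lower), with a median of 0.01. Besides Cyp2a they were Cyp4b1-ps2/Gm12839 (-1.45, SE 0.11), Klkb1/Cyp4v3 (-1.34, SE 0.11) and Aldh3b3/Aldh3b2 (-0.58), the last without a call when any 1 array was left out (adjusted p up to 0.161).

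Chitinase-like genes, a family of chitin-binding proteins in airway and macrophages, went opposite ways. Chia1/Chia, old and new names of acidic mammalian chitinase, stood at 13.49 and 13.28 in PBS and at 10.97 and 10.74 in BLM. Both BLM arrays were far below both PBS arrays. The fall was 2.53 (-2.53, SE 0.14, adjusted p = 0.0013), or 5.78-fold. Chil3/Chi3l3, the gene of the macrophage protein Ym1, stood at 5.99 and 6.14 against 8.08 and 8.03 and rose by 1.99 (SE 0.11). Chil1/Chi3l1 differed by 0.05 (SE 0.14), Chil4/Chi3l4 by 0.57 (SE 0.17, adjusted p = 0.088) and Chi3l7/Chil5 by -0.00 (SE 0.11), and none of the 3 passed.

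Class I histocompatibility genes of the Q region, which encode nonclassical presenting molecules, fell in 3 of 4 shared clusters, and 1 of these 3 kept its call without each array. H2-Q8/H2-Q6 stood at 11.48 and 11.74 against 10.56 and 10.32. The BLM arrays were the lower pair and the groups did not overlap. It fell by 1.17 (-1.17, SE 0.15, adjusted p = 0.008). H2-Q5/H2-Q7 (-0.77) lost its call without BLM replicate 2, PBS replicate 1 or PBS replicate 2 (adjusted p up to 0.128), and H2-Q7/H2-Q9 (-0.74) without BLM replicate 1, BLM replicate 2 or PBS replicate 2 (up to 0.0793). Gm10499/H2-Q5, at -0.27 (adjusted p = 0.157), did not pass. Cd74/Mir5107, the invariant chain gene of class II, was at 15.97 and 16.02 against 15.55 and 15.60, a fall of 0.42 (-0.42, SE 0.10, adjusted p = 0.0472). It lost its call without any 1 array (up to 0.21) and with cyclic loess scaling (-0.29, adjusted p = 0.123). In all, 4 of 10 shared clusters with histocompatibility or presentation genes fell and 0 rose (40.0% passing, beside 8.48% of all clusters lower), and 3 of the 4 calls are lost without some arrays as given above.

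The greatest rise belonged to small proline-rich proteins, crosslinked components of the envelope of squamous cells that also appear in stressed airway epithelium. Sprr2a3/Sprr2a2/Sprr2a1 stood at 5.65 and 6.00 in PBS and at 8.86 and 9.35 in BLM. The BLM arrays differed from each other but both lay far above PBS. The rise was 3.28 (SE 0.21, adjusted p = 0.0017), or 9.73-fold. Another cluster, Sprr2a2/Sprr2a1, stood at 5.13 and 5.08 against 5.62 and 5.53, a rise of 0.47 (SE 0.10) that lost its call without any 1 array (adjusted p up to 0.184). The PBS levels of both lie close to the median of all clusters, 5.47, where differences are compressed. Of the family's own clusters, Sprr1a rose by 1.88 (SE 0.24) and Sprr2b by 1.26 (SE 0.17), whereas Sprr2d, Sprr2e, Sprr2f, Sprr2g and Sprr2h lay between -0.00 and 0.14 and did not pass.

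Paralogs of myeloid receptors and regulators rose on arrays where macrophage markers were higher. Sirpb1 genes encode activating receptors of myeloid cells. Sirpb1a/Sirpb1c stood at 5.51 and 5.62 in PBS and at 7.75 and 7.65 in BLM, and rose by 2.13 (SE 0.11, adjusted p = 0.0013). The groups lay far apart. Sirpb1a/Sirpb1b rose by 1.81 (SE 0.16). Pira2 and Pira1, paired activating receptors of myeloid cells, rose by 0.99 (SE 0.10) in Pira1/Pira2 and by 0.98 (SE 0.10) in Gm14548/Pira2/Pira1. Gm15448/Pirb, with the inhibitory partner gene, rose by 0.75 but lost its call without BLM replicate 1, BLM replicate 2 or PBS replicate 2 (adjusted p up to 0.0646). Bcl2a1b/Bcl2a1a, survival genes related to Bcl2 and active in leukocytes, stood at 7.71 and 7.71 against 9.21 and 9.16, a rise of 1.48 (SE 0.10). The cluster of Bcl2a1a alone rose by 1.57 (SE 0.12) and that of Bcl2a1d by 1.33 (SE 0.18), whereas that of Bcl2a1c was at 0.51 (SE 0.12, adjusted p = 0.0539) and did not pass. Of all 29 shared clusters with chemokine, lectin or immune receptor genes, 19 rose and 2 fell (72.4% passing, beside 15.7% of all clusters), with a median of 0.84. The 29 hold 25 sets of values in 11 groups that share a gene, and 14 of the 19 rises are the Ccl21 and Ccl19 clusters. The level of macrophage markers moved the same way, and its part in these rises was not tested.

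On chromosome 12 a pair of neighbouring duplicated genes rose on the same arrays. Srp54 encodes the signal recognition subunit that targets nascent secreted proteins to the endoplasmic reticulum. Srp54a/Srp54b stood at 11.94 and 12.04 in PBS and at 13.70 and 13.53 in BLM, a rise of 1.62 (SE 0.11), and Srp54b/Srp54a rose by 1.54 (SE 0.11). The cluster of the third copy, Srp54c, rose by 1.47 (SE 0.12). Fam177a2/Fam177a occurs as 2 clusters with different values. The brighter stood at 11.15 and 11.58 against 13.58 and 13.55 and rose by 2.20 (SE 0.16). The dimmer stood at 9.62 and 10.06 against 12.07 and 12.06 and rose by 2.23 (SE 0.17). In both, the BLM arrays nearly coincided and the PBS arrays lay further apart. Genes of the same region with their own clusters were also higher, the chromatin remodelling gene Baz1a by 0.92 (SE 0.10) and the phosphatase subunit gene Ppp2r3c by 0.49, a call lost without any 1 array (adjusted p up to 0.175). Phf11d/Phf11c, PHD finger genes of chromosome 14, rose by 1.46 (SE 0.11), and Phf11b alone by 0.85 (SE 0.10).

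A large family of gene models on chromosome 14 rose as a whole. The gene 2610042L04Rik has the RefSeq synonym takusan, and 18 clusters linked by shared symbols list it and 29 other models, nearly all named Gm with a number. Of these 30 genes 25 are protein-coding in RefSeq. Takusan genes are known as a rapidly expanded rodent family related to the neuronal scaffold gene Dlg5. All 18 clusters rose, by 0.70 to 2.20 with a median of 1.72. PBS arrays ran from 6.33 to 8.28 and BLM arrays from 7.26 to 9.96. Gm3383/Gm3173/Gm3667 with 3 further models had the highest difference, 2.20. Gm3173/Gm3095/2610042L04Rik stood at 7.34 and 7.58 against 9.22 and 9.35, a rise of 1.83 (SE 0.13). The lowest, Gm3512/Gm3715, rose by 0.70 and was the only one of the 18 to lose its call, without BLM replicate 1, PBS replicate 1 or PBS replicate 2 (adjusted p up to 0.106).

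Clusters that name a single gene of this family ran alongside. Of 12, 10 rose, and the differences ran from 0.33 to 2.12 with a median of 1.58. The cluster of 2610042L04Rik alone stood at 7.37 and 7.38 against 8.79 and 8.75, a rise of 1.39 (SE 0.10). The arrays of each group nearly coincided. Dlg5 differed by 0.02 (SE 0.10, adjusted p = 0.93) and did not pass. Across chromosome 14, 50 shared clusters rose and 2 fell of 134 (38.8% passing, beside 15.7% of all clusters), and of 53 there that list only unnamed models 33 rose and 0 fell. The near-identity of these models means that the 18 values need not be independent readings. Among other chromosome 14 groups, 3 clusters of Plac9a, Plac9b and Gm9780, small secreted protein genes, rose by 0.80 to 1.20.

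**Figure D4:**
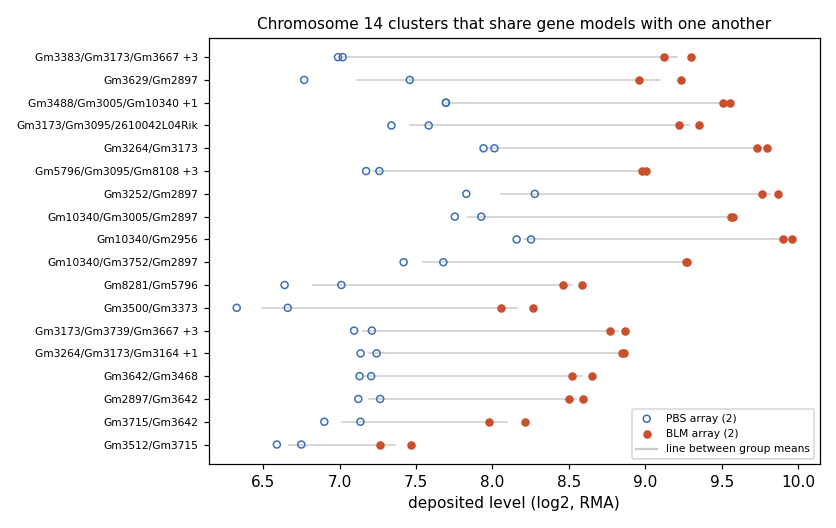
Deposited level (log2) on each of the 4 arrays for the 18 chromosome 14 clusters linked by shared gene models. Open circles are PBS arrays (6.33 to 8.28), filled circles BLM arrays (7.26 to 9.96) and grey lines join the group means; in each cluster both BLM arrays lie above both PBS arrays.

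Pseudogenes listed with their parent gene could differ from the parent's own cluster. Tmsb10 encodes thymosin beta 10, which binds actin monomers. Tmsb10/Gm9844 lies on chromosome 7, where RefSeq places the pseudogene Gm9844, and stood at 9.75 and 10.11 in PBS and at 12.53 and 12.51 in BLM. The BLM arrays nearly coincided, well above PBS. It rose by 2.59 (SE 0.15, adjusted p = 0.0014). The cluster naming Tmsb10 alone, on chromosome 6, rose by 0.56 (SE 0.11), and that call was lost without any 1 array (adjusted p up to 0.126). Gm1848/Atp1b3, with the beta 3 subunit gene of the sodium pump, rose by 1.48 (SE 0.17), and Atp1b3 alone by 0.70, a call lost without BLM replicate 1, BLM replicate 2 or PBS replicate 1 (adjusted p up to 0.0765). For Pgam1, a glycolytic mutase gene, Gm8910/Pgam1 rose by 1.35 (SE 0.12), Pgam1-ps2/Pgam1 by 1.26 (SE 0.13) and Pgam1 alone by 0.88 (SE 0.11). Rpl12/Gm9396 and Rpl12 alone, a large ribosomal subunit protein gene, rose by 1.24 (SE 0.10) and 1.23 (SE 0.12). Gm8210/Rpl29, another such gene with a copy, rose by 1.05 (SE 0.10) at a level of 13.03 and 13.10 in PBS. Differences between a shared and an own cluster were not tested.

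Taken over the 382 called clusters other than synonyms, 130 list a gene that also has a cluster of its own, which gives 176 pairs. The own cluster passed in the same direction in 82 pairs, in the opposite direction in 2, and did not pass in 92. Among all clusters naming 1 gene 18.2% passed, 10.9% higher and 7.33% lower. The 176 pairs are not independent, because some own clusters recur, such as those of Ccl19 and the Y models Gm20736 and Gm20885. Some also carry the same values as the shared cluster, such as 4933409K07Rik beside 4933409K07Rik/Gm21093 (-1.06 in both), so their match was given beforehand. Both opposite pairs are neighbours. Junb/Prdx2, an immediate early transcription factor gene and a peroxiredoxin gene, stood at 12.33 and 12.54 against 11.78 and 11.71. It fell by 0.69 (-0.69, SE 0.12), a call lost without BLM replicate 1, BLM replicate 2 or PBS replicate 2 (adjusted p up to 0.0909). Prdx2 alone stood at 10.53 and 10.68 against 11.45 and 11.42 and rose by 0.83 (SE 0.11). Fut11/6230400D17Rik rose by 0.51, a call lost without any 1 array (adjusted p up to 0.132), and 6230400D17Rik alone fell by 0.49 (-0.49), a call also lost without any 1 array (up to 0.142).

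**Figure D5:**
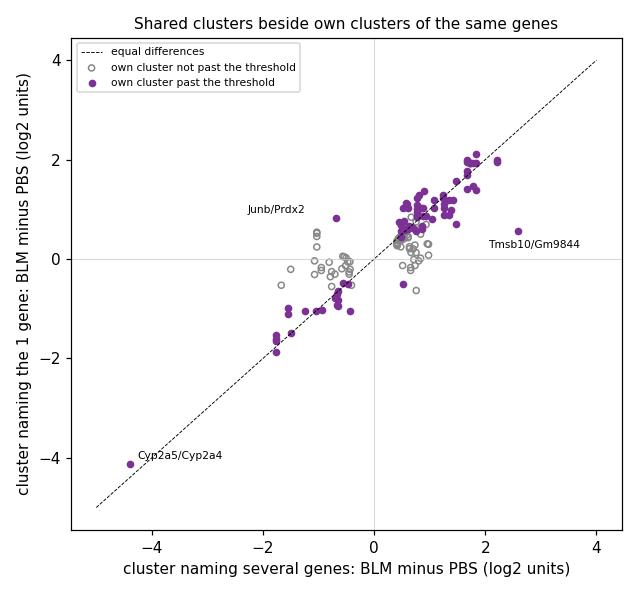
Difference of each called cluster (horizontal axis, log2 units) against that of a cluster naming 1 of its genes (vertical axis, log2 units), 176 pairs. Some own clusters recur in several pairs. Filled points mark own clusters past the threshold and the dashed line equal differences; Cyp2a5/Cyp2a4 lies near the line, Tmsb10/Gm9844 (2.59 against 0.56) far below it and Junb/Prdx2 (-0.69 against 0.83) in the opposite quadrant.

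Hosts of small RNAs moved in both directions. Loxl2, a collagen-crosslinking lysyl oxidase gene, is listed with Mir6950 and Gm21451, and the cluster stood at 8.59 and 8.46 in PBS and at 11.00 and 10.84 in BLM. Both BLM arrays were far above both PBS arrays, and the rise was 2.40 (SE 0.12, adjusted p = 0.0012). Other lysyl oxidases with clusters of their own moved likewise, Loxl1 by 2.92 (SE 0.11) and Loxl3 by 1.37 (SE 0.10), but Loxl4, at 0.31 (SE 0.10, adjusted p = 0.12), did not pass. Dnm3os/Mir214/Mir199a-2, whose microRNAs are printed above, is a noncoding transcript of mesenchymal cells that runs opposite to an intron of Dnm3. It stood at 5.71 and 5.96 in PBS and at 8.24 and 7.95 in BLM, and both BLM arrays were clearly the higher. The rise was 2.26 (SE 0.15, adjusted p = 0.0019), while Dnm3 itself differed by -0.13 (SE 0.11, adjusted p = 0.5). Fibroblast markers rose on the same arrays, and their part in these differences was not tested.

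Further hosts that rose were Fxyd5/Mir7050, a regulator of the sodium pump, by 1.64 (SE 0.10), Zeb2/Mir5129, a transcription factor of mesenchymal and myeloid cells, by 1.33 (SE 0.11), Ecm1/Mir7014, an extracellular matrix protein, by 1.30 (SE 0.14) and Plod3/Mir702, a lysyl hydroxylase of collagen, by 0.97 (SE 0.10). Pdgfra/Mir7025, a growth factor receptor of fibroblasts, rose by 0.97, a call lost without BLM replicate 1 or 2 (adjusted p up to 0.0543). Among falls, Glul/Mir8114 stood at 11.52 and 11.72 against 9.70 and 9.55 and fell by 1.99 (-1.99, SE 0.12). Kif27/Mir6369 stood at 7.98 and 7.95 against 6.21 and 6.02 and fell by 1.86 (-1.86, SE 0.11). The BLM arrays were the lower pair in each. Kif27 serves motile cilia, and all 5 ciliated cell markers were lower on the same arrays. Cckar/Rnu7, a cholecystokinin receptor gene listed with a U7 small nuclear RNA, stood at 10.19 and 10.10 against 8.40 and 7.99. It fell by 1.95 (-1.95, SE 0.16). RefSeq places Cckar on chromosome 5, like the cluster, and Rnu7 on chromosome 6, so Cckar is not its host. The other cluster listing Rnu7, Grcc10/Rnu7, differed by 0.18 (SE 0.13) and did not pass.

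Of 574 clusters with any small RNA symbol, 41 rose and 38 fell (13.8% passing, beside 15.7% of all clusters), with a median of -0.00. MicroRNA genes listed with another gene rose in 27 and fell in 14 of 197 clusters, at a median level of 7.81. Those listed alone under a pair of names rose in 9 and fell in 18 of 283 (9.54% passing), at a median level of 5.75. Mir6363 was the deepest of these falls. It stood at 7.55 and 7.83 against 5.73 and 6.00 and fell by 1.83 (-1.83, SE 0.15). Called clusters listed 79 microRNA genes, 69 with a mature sequence, and only 3 seeds occurred in more than 1 gene. One was AGCACCA, of Mir29b-2 and Mir29c, a family known to target collagen messengers. Their common host cluster, A330023F24Rik/Mir29c/Mir29b-2, fell by 0.72 (-0.72, SE 0.11), a call lost without BLM replicate 1, PBS replicate 1 or PBS replicate 2 (adjusted p up to 0.0794). The second, CUGCUGU, came from the copies Mir683-1 and Mir683-2 in 1 cluster. The third, GGAAAGG, joined Mir7010, in a cluster with Gucy1a3 that rose by 0.86, to Mir7027, whose cluster fell by 0.96 (-0.96), a call lost without PBS replicate 1 or 2 (adjusted p up to 0.061).

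Of 133 clusters of overlapping genes 4 passed with at least 1 log2 unit, and of 200 of neighbours 5, where 5.03% of all clusters did. Small RNAs that overlap another gene are not in these classes. Of the 198 clusters with same-strand overlaps in any class 10 did. Nme9/1600029I14Rik, with a gene of the nucleoside diphosphate kinase family, stood at 10.61 and 10.81 in PBS and at 8.62 and 8.65 in BLM. Both BLM arrays lay far below PBS, and the fall was 2.08 (-2.08, SE 0.11, adjusted p = 0.0014). Sco2/Tymp, a copper chaperone of cytochrome oxidase and thymidine phosphorylase, fell by 1.23 (-1.23, SE 0.11). Adam12/5830403F22Rik, a metalloprotease of activated mesenchymal cells, rose by 1.23 (SE 0.10), and Schip1/Gm21949 by 1.09 (SE 0.15), a call lost without PBS replicate 1 (adjusted p = 0.0502). Among neighbours that do not overlap, Klkb1/Cyp4v3 and Pfkfb2/C4bp-ps1, a regulator of glycolysis beside a complement pseudogene, fell by 1.34 (-1.34, SE 0.11) and 1.31 (-1.31, SE 0.10). Gm3476/Gm26991 rose by 1.12 (SE 0.10). Of the 11 clusters with genes on opposite strands limma called 0 (0 at an unadjusted p under 0.05).

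Dynein heavy chains, the motors of cilia, give a pair of close paralogs. Dnah7b/Dnah7c stood at 7.54 and 7.47 against 6.53 and 6.60. The BLM arrays were the lower pair, and the fall was 0.94 (-0.94, SE 0.10). The clusters of Dnah7c alone (-1.02, SE 0.10) and Dnah7a alone (-0.98, SE 0.10) fell alike. The ciliated markers named above moved the same way.

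Clusters whose symbols are synonyms read 1 gene each. Besides Chia1 and Chil3, Arhgef38/D630013G24Rik, a guanine nucleotide exchange factor, stood at 10.92 and 10.96 against 8.87 and 8.89. The arrays of each group nearly coincided, and it fell by 2.06 (-2.06, SE 0.10). Ciart/Gm129, a repressor in the circadian clock, fell by 1.78 (-1.78, SE 0.17), Azin2/Adc, an antizyme inhibitor, by 1.65 (-1.65, SE 0.10) and Erich3/4922501L14Rik, a gene of ciliated cells, by 1.51 (-1.51, SE 0.14). Firre/6720401G13Rik, an X-linked noncoding RNA, fell by 1.33 (-1.33). Brinp1/Dbc1 stood at 6.48 and 6.49 against 8.14 and 8.16 and rose by 1.66 (SE 0.10). Cemip/9930013L23Rik, which depolymerises hyaluronan, rose by 1.20, from a mean of 5.09 to 6.30, and Wfdc21/1100001G20Rik, a whey acidic protein family member, also by 1.20. Firre, Cemip and Wfdc21 were not among the clusters picked by the naming rule and were chosen after their values were seen, as were others given here beyond the highest and lowest of each class and list.

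Histone genes lie in repeated clusters. Of 41 shared clusters 2 rose, 6 fell and 33 did not pass (19.5% passing, near the 15.7% of all clusters). H3f3b/Gm12657 with 4 further symbols, H3f3a among them, stood at 12.01 and 11.84 against 10.87 and 10.92 and fell by 1.03 (-1.03, SE 0.11). The BLM arrays were the lower pair. The cluster with the same 6 symbols and H3f3a first differed by -0.03 (SE 0.11). H4f16/H4c17 with 11 further H4 genes fell by 0.95 (-0.95, SE 0.11). Hist1h4i/Hist1h4m with 11 further symbols, older names of the same genes, rose by 0.66 (SE 0.10), a call lost without any 1 array (adjusted p up to 0.0758). Hist1h2bc/Hist1h2bg/Hist1h2be, genes of histone H2B, stood at 13.09 and 13.24 against 14.14 and 14.16 and rose by 0.98 (SE 0.11). Hist1h2be/Hist1h1e with 3 further symbols, which lists the same H2B genes, fell by 0.74 (-0.74, SE 0.15), a call lost without BLM replicate 1, BLM replicate 2 or PBS replicate 2 (adjusted p up to 0.119). Clusters of the same histone genes were thus called in both directions.

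Ribosomal proteins and translation factors rose in 11 and fell in 1 of 64 shared clusters (18.8% passing, beside 15.7% of all clusters), at a median level of 11.16. That count leaves out Ago4/Eif2c4, an Argonaute gene that matched the list by its old symbol and stood at -0.79, a call lost without BLM replicate 1, PBS replicate 1 or PBS replicate 2 (adjusted p up to 0.0726). Eif4a2/Snord2/Snora81, a translation helicase with small nucleolar RNAs in its introns, fell by 0.86 (-0.86, SE 0.10). Interferon-induced families rose in 3 and fell in 0 of 11 (27.3% passing), led by Ifi203/LOC100862473/Gm16340 at 1.25 (SE 0.15). The other rises there, Ifi27/Ifi27l1 (0.56) and Ctsd/Ifitm10 (0.49), lost their calls without any 1 array. Matrix genes rose in 2 of 5 (40.0% passing), and of these Col7a1/Mir711 (0.46) lost its call without any 1 array. Nuclear genes of the mitochondrial respiratory chain rose in 2 of 6 (33.3%). Of these, Gm10231/Atp5g2 (0.70) lost its call without BLM replicate 1, BLM replicate 2 or PBS replicate 1. Proteases and serpins rose in 2, Ctsd/Ifitm10 among them, and fell in 1 of 8 (37.5%). Solute carriers and ion channels rose in 1 of 14, leaving out Trps1/Mir1907, a transcription factor gene that matched the list by its symbol, and zinc finger proteins in 1 of 28 and clustered protocadherins in 1 of 2, with 0 falls in each. Immunoglobulin and T cell receptor segments rose in 3 and fell in 2 of 51 (9.80% passing). Olfactory, vomeronasal and taste receptors, at a median level of 4.77, rose in 2 and fell in 1 of 74 (4.05% passing), and each call was lost without some arrays. Of 22 clusters with tubulin, actin, keratin or myosin genes limma called 0 (5 at an unadjusted p under 0.05). Gm2083/Mup22/Mup18 and Mup19/Mup16/Mup9, major urinary protein genes, stood at means of 5.07 and 5.0 in PBS and rose by 1.5 (SE 0.12) and 1.43 (SE 0.12), a dim range where the size is not exact.

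Genes of the mitochondrial genome, which encode core respiratory chain subunits and ribosomal RNA, fell in 4 of 4 shared clusters, beside 8.48% of all clusters lower. These 4 were chosen after their values were seen. ND5/CYTB stood at 18.69 and 18.78 in PBS and at 18.04 and 18.05 in BLM, and fell by 0.69 (-0.69, SE 0.10). ND4/ND4L differed by -0.65, mt-Rnr2/ND1 by -0.61 and ATP8/ATP6/COX3 by -0.56. The groups did not overlap in these clusters, which are among the brightest on the arrays. Each lost its call without at least 3 of the 4 arrays in turn (adjusted p up to 0.126), and with cyclic loess scaling the differences were -0.51 to -0.33 and none passed (adjusted p of 0.054 to 0.122).

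On the Y chromosome 22 of 133 shared clusters rose and 0 fell (16.5% passing, beside 15.7% of all clusters), by 0.44 to 0.61, at levels of 4.45 to 5.38 in PBS and 5.07 to 5.85 in BLM. The 22 hold 7 distinct sets of values. On the X chromosome 6 rose and 6 fell of 147 (8.16% passing), whereas Xist was lower in BLM. Without X and Y genes the counts over all shared clusters were 212 higher and 132 lower.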

How the data were processed

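Total RNA was biotin-labelled and hybridised to 1 Affymetrix array per sample, per the labels' protocols. The deposited log2 values come from RMA, which summarises probes after background correction and quantile scaling. The submitters' processing notes name it with Affymetrix Expression Console. Their versions, the array build and scaling after RMA: not given in the sources used here. Array medians were 5.44 to 5.49, the values reach 19.87, and differences of dim clusters are compressed.

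The test was limma's (version 3.58.1, under R 4.3.3) lmFit with eBayes (two-sided, Benjamini-Hochberg over 65770 clusters, threshold 0.05; 2 residual and 3.28 prior degrees of freedom, median SE 0.121, smallest called difference 0.403). The number of arrays limits the precision. The fit was tested on simulated data.

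Of 5880 symbols, 5856 (99.6%) matched the RefSeq gene table (GRCm38.p6), whose positions gave each relation. No protein table was used, so paralogs were taken from symbols; promoters were aligned locally with Biopython 1.88. The members and lists were chosen with earlier results of these data known. Clusters named were, after joining identical values, the 12 highest and 12 lowest called that list a gene other than unnamed models, up to 4 called per list, the 2 highest and 2 lowest per class, and the sample checks; others were chosen after their values were seen. Alternatives were a replicate block, each array left out, a filter on dim clusters, another prior, median centring, cyclic loess, annotated clusters, identical values once and no X or Y genes.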

Additional observations from a re-analysis of the deposited data

How the results depend on the processing

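Leaving out each array in turn gave 103 to 125 higher and 55 to 68 lower calls, against 243 and 139 with all arrays; those fits have 1 array in a group and assume that it varies like the other group. Under every other alternative both counts stayed within 1.5 times: 256 and 134 with cyclic loess, 232 and 135 with median centring, 299 and 166 with the filter on dim clusters, 254 and 145 with a trended robust prior, 353 and 187 over annotated clusters, 223 and 133 with identical values once, and 212 and 132 without X and Y genes. With the replicate number as a block the counts were 168 and 107. Deviations of same-numbered arrays correlated at -0.027. With 2 arrays per treatment that value cannot show whether the numbers pair the arrays. Of 70 clusters named by the rule, 0 reversed under any of these alternatives, 18 to 21 lost their call without 1 array, 11 with the block, 3 with cyclic loess and 1 with median centring. With a 10 kb window for neighbours 687 clusters held genes apart, and 85 neighbours and 51 paralogs were left within it. Paralogs at 50% protein identity were not run, since no protein table was used. Cyclic loess moved the median difference of all clusters from 0.01 to -0.0002.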
